A study of Mus musculus with 6 samples.

Results

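The genes of the AP-1 (activator protein 1) transcription factors were followed through profiles of acetylated histone H3 (H3ac) in mouse mesenchymal stem cells (MSCs). The family as read here held 10 genes, Fos, Fosb, Fosl1 and Fosl2, Jun, Junb and Jund, and the related Atf3, Batf3 and Maff. Members were chosen by position alone, as every H3ac region of the deposited table that overlapped the body of one of these genes extended by 5 kb at both ends (mm10 coordinates, GENCODE annotation). This gave 12 of the 24431 regions, and each of the 10 genes had at least 1. Of the 12 regions, 11 were promoter regions, meaning that a protein-coding transcript started inside them or at most 1 kb away, and the other one lay over the 3′ end of Fosl2. The same 12 regions were found with no extension, and an extension of 10 kb added 1 region that lay 7925 bp beyond Maff and had 17.1 and 11.85 RPM (reads per 1000000 reads of the library) in Young against 10.6 and 14.3 in Old, with 13.4 and 11.7 in OldAcetate.

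AP-1 factors bind DNA as dimers that are held together by a leucine zipper next to a basic, DNA-contacting stretch. Jun proteins pair with themselves or with Fos proteins, whereas Fos proteins need a Jun partner, and the dimers recognise a short palindrome known as the TRE or, with ATF-type partners, the related CRE. Several of these genes are immediate early genes, which serum, growth factors and stress switch on within minutes and without new protein synthesis. In the skeleton, Fos is needed for osteoclasts, and excess Fosl1 or a short form of Fosb raises bone mass through the osteoblast lineage that MSCs feed. H3ac is laid down by acetyltransferases that draw on acetyl-CoA, and it marks active promoters and enhancers.

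H3ac was measured by CUT&RUN, in which an antibody tethers a nuclease to the mark and the DNA that is cut free is sequenced. The 6 libraries formed 3 groups of 2, all from MSCs kept in 2% oxygen with the same serum-containing medium. Young cells came from mice aged 3 to 5 months and Old cells from mice aged 18 to 22 months, both with no treatment. OldAcetate cells came from mice aged 18 to 22 months and were given sodium acetate at 5 mM over 3 days. There was no acetate-treated Young group, and strain and sex are not given in the sources used here. The labels do not say whether the libraries of a group came from separate animals or cultures, so p-values measure only the spread between these libraries, which may be technical. Sampling depth, inferred from the RPM value of a single read because library totals are not given, ran from 2163351 to 3039481 reads per library. On the same inference, 49.9% and 45.9% of the reads of the Old libraries lay in the regions of the table. The Young and OldAcetate libraries had 56.3% to 64.8% there. All 8 stromal marker genes examined (Pdgfra, Ly6a, Eng, Thy1, Nt5e, Itgb1, Pdgfrb and Prrx1) had a promoter region, with a median of 2.99 RPM per kb. Of the blood and endothelial marker genes, Ptprc, Itgam, Adgre1, Cdh5, Pecam1, Kdr and Tie1 had none, whereas Spi1 had a region. H3ac at a promoter is not expression, and in a bulk library fewer cells carrying the mark and less of the mark per cell cannot be told apart.

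The stretch just upstream of each start site was read first, since immediate early genes are classically switched on from there. Windows from 350 to 51 bases before the start site (300 bases each, GRCm38.p6 genome sequence from RefSeq) were searched on both strands for the TRE (TGACTCA), the CRE (TGACGTCA), the Jun-type site (TGACATCA) and the CArG box, the site of serum response factor (SRF). The 3 genes with a match are shown, with the match in capitals, each in the direction of transcription.
Fos, chr12:85473540-85473839, plus strand: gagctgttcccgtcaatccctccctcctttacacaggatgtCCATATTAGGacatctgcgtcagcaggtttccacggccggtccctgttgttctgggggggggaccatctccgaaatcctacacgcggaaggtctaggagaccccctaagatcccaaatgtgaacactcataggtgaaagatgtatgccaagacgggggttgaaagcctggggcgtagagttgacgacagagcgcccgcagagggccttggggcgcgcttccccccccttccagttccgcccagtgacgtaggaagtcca
Fosb, chr7:19310102-19310401, minus strand: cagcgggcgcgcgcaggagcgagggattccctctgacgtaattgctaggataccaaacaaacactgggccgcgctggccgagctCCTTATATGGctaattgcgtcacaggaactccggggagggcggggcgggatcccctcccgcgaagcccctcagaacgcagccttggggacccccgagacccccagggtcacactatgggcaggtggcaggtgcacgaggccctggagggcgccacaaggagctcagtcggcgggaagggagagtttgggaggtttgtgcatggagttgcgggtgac
Jund, chr8:70698599-70698898, plus strand: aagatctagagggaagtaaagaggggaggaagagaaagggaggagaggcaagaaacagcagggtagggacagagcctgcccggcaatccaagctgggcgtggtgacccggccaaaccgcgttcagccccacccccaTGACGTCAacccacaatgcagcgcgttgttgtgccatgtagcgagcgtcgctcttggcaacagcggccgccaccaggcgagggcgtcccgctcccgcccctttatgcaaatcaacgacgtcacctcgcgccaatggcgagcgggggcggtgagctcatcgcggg
In Fos the capitals mark a CArG box, CCATATTAGG, at 309 to 300 bases before the start site, and in Fosb a CArG box, CCTTATATGG, at 266 to 257 bases before it. In Jund they mark a CRE at 214 to 207 bases before the start site. No window held more than 1 match, so none overlapped. Among the windows of 41433 start sites of protein-coding transcripts, 1.46% held a CArG box, 1.37% a CRE, 2.29% a Jun-type site and 4.31% a TRE. In the windows of the other members these exact letters were not found, which says nothing about sites with other letters or at other distances.

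Each AP-1 gene carried H3ac over its start site, and in Fos, Fosb, Fosl1, Fosl2 and Junb it spread as a domain of 20 kb or more. The Fosb region spanned 51 kb (chr7:19295501-19346500), the Fosl1 region 50.0 kb (chr19:5443001-5493000), the Fos region 48.5 kb (chr12:85451501-85500000), the Fosl2 region 32.5 kb (chr5:32119001-32151500) and the Junb region 27.0 kb (chr8:84964501-84991500). Those of Jun (chr4:95046001-95056000) and Jund (chr8:70695501-70704500) were compact, at 10.0 and 9.0 kb. Atf3 had separate regions over its upstream start site (17.0 kb, chr1:191215501-191232500) and over a start site inside the gene (12 kb, chr1:191179001-191191000). The Maff region spanned 19.0 kb (chr15:79343501-79362500) and the Batf3 region 3.5 kb (chr1:191097001-191100500), the shortest of the 12. Thus 5 of 11 AP-1 promoter regions were at least 20 kb long, against 9.43% of the 11165 promoter regions of protein-coding genes. Counted by gene, 5 of 10 AP-1 genes had a promoter region of that length, compared with 11.25% of 12484 genes with a promoter region, 10 of 20 other immediate early genes and 8 of 14 AP-1 target genes with a region. The names of all 12 AP-1 regions carried the codes Y, O and AC together, which are read here as the 3 groups although the labels do not define them, and so did 91.1% of promoter regions. The shares of long regions are descriptions without a test, and a rule that picks regions by overlap favours long ones.

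**Figure D1:**
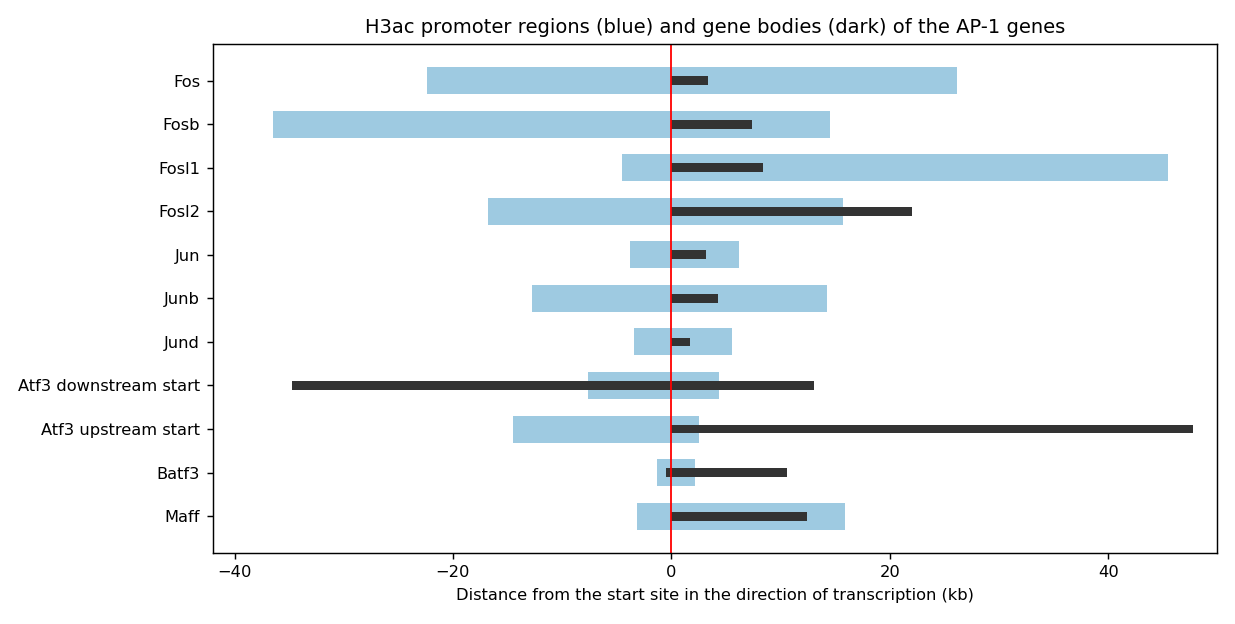
H3ac promoter regions of the AP-1 genes (blue bars) and the gene bodies (dark bars), drawn as distance in kb from the start site (red line) in the direction of transcription. The Fos and Fosl2 regions reach far to both sides, the Fosb region lies mostly upstream (36.4 kb) and the Fosl1 region mostly downstream (45.5 kb), while the Atf3 gene body is covered at its separate start sites only.

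The domains differed in how they lay around the genes. Fos sat near the middle of its region, with 22.4 kb before and 26.1 kb after the start site, and its gene body made up 6.98% of the region. The Fosb region ran 36.4 kb upstream to the start of Ercc1 and touched the end of Rtn2 on its other side, and the Fosl1 region ran 45.5 kb downstream, over all or part of 7 other protein-coding genes, among them Cfl1 and Mus81. The Junb region was shared with 4 other protein-coding genes, Prdx2, Hook2, Rnaseh2a and Gm49661, the Jund region with Iqcn, and the Maff region with Tmem184b. Signal in these 5 regions cannot be assigned to the AP-1 gene alone. The regions of Fos, Fosl2, Jun, Atf3 and Batf3 held no other protein-coding gene. The further Fosl2 region (10.5 kb, chr5:32153501-32164000) covered most of the last exon, which ends at 32157842 and includes the 3′ UTR, and ran on beyond the gene.

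Over the 12 whole regions together, the TRE was the most frequent of the 4 motifs, although the Fos region held 3 TRE matches beside 4 Jun-type sites. The Fosb region held 20 TRE matches, the Fosl1 region 12, the Junb region 10 and the Fosl2 region 8, whereas the Jun, Batf3 and Fosl2 3′ regions held 0. Over the 12 AP-1 regions this came to 2.28 TRE matches per 10 kb, compared with 1.91 in promoter regions and 2.25 in all regions. CArG boxes numbered 6 in the Fos region and 4 each in those of Fosb and Junb, and their rate over the AP-1 regions was 0.655 per 10 kb against 0.5275 in promoter regions. The observed to expected ratio of CpG, which is high in CpG islands, was 0.525 in the Jun region, 0.511 in Batf3 and 0.484 in Jund, and 0.320 in Fos and 0.234 at the upstream start of Atf3, with a median of 0.401 over promoter regions. The ratio was taken over whole regions, and promoter regions had a median length of 5500 bp. In a long region such as that of Fos (48.5 kb) it does not describe the stretch around the start site alone.

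Per length, the mean H3ac level of the promoter regions was highest in the Jun family and lowest in Fosl1, Maff and Fos. Averaged over the 6 libraries, Jun had 3.91 ± 0.57 RPM per kb (SD over libraries of all groups), Junb 3.48 ± 0.55, Jund 3.44 ± 0.50 and the downstream start of Atf3 3.43 ± 0.35. These densities lay above the median of promoter regions, 3.04 RPM per kb. Batf3 followed at 2.89 ± 0.52, the upstream start of Atf3 at 2.78 ± 0.39, Fosb at 2.63 ± 0.30, Fosl2 at 2.45 ± 0.42, Fos at 2.42 ± 0.48, Maff at 2.36 ± 0.43 and Fosl1 at 2.33 ± 0.33. No neighbours in this order differed by more than the SD of their difference over the libraries. Jun ranked between the first and the third place in every library, whereas Batf3, with 19 to 38 reads per library, ranged from rank 1 to rank 11. Long promoter regions were less dense as a class, at a median of 2.77 RPM per kb from 20 kb upward and 3.07 below, and among the long ones Junb lay at percentile 90.3 and Fosl1 at percentile 13.6. The Fosl2 3′ region, which is no promoter region, lay below all of them at 2.00 RPM per kb.

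**Figure D2:**
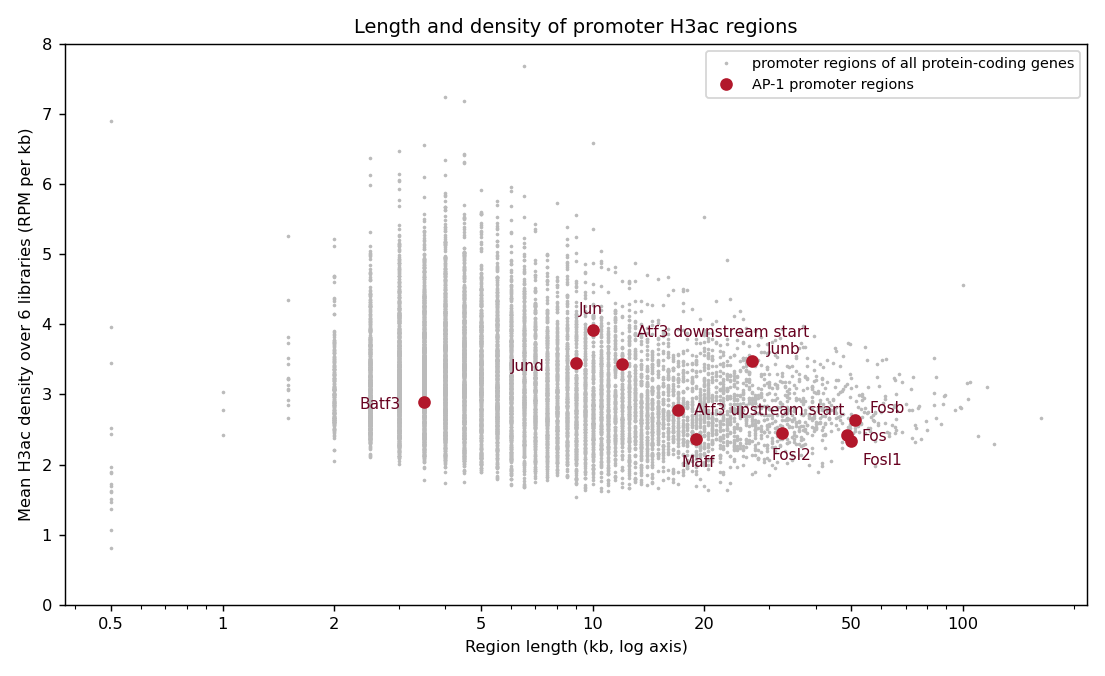
Length of each promoter region (kb, log axis) against its mean H3ac density over the 6 libraries (RPM per kb), with the AP-1 promoter regions in red among all promoter regions in grey; 2 promoter regions above 8 RPM per kb are outside the axis. Fos, Fosb and Fosl1 sit at about 50 kb with 2.33 to 2.63 RPM per kb, while Jun reaches 3.91 RPM per kb over 10.0 kb.

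For the Fos family, the values as deposited were lowest in Old cells throughout. Fos, the founding member and the partner of Jun in the classical dimer, had 157 and 117 RPM in Young against 98.9 and 88.7 in Old, with 119 and 123 in OldAcetate. Fosb, whose short splice form lacks the activation domain, had 158 and 129 RPM in Young against 123 and 115 in Old, with 139 and 141 in OldAcetate. Fosl1, which encodes Fra-1, had 139 and 109.9 RPM in Young against 99.4 and 99.0 in Old, with 124 and 129 in OldAcetate. In all 3 genes both Old libraries lay below those of the other groups, and the OldAcetate libraries lay within the Young range. Over all regions, Old lay below Young without overlap in 60.2% and OldAcetate above Old in 47.1%. Fosl2, which encodes Fra-2, a regulator of osteoblast differentiation, had 95.1 and 85.4 RPM in Young against 67.95 and 58.5 in Old, with 89.4 and 80.9 in OldAcetate. The Fosl2 3′ region had 27.6 and 23.7 RPM in Young against 19.9 and 11.5 in Old, with 20.8 and 22.5 in OldAcetate. The order was the same in both Fosl2 regions, with Old lowest. In the 3′ region OldAcetate also lay below Young without overlap, as it did in 29.8% of all regions.

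The Jun family showed the same placing of the Old libraries and more variety in OldAcetate. Jun, the strongest activator among the Jun proteins, had 39.8 and 39.6 RPM in Young against 34.7 and 30.6 in Old, with 44.7 and 45.5 in OldAcetate. Junb, which can restrain Jun and is needed for normal bone mass, had 117 and 95.6 RPM in Young against 74.9 and 80.7 in Old, with 99.1 and 95.9 in OldAcetate. Jund, the member that is expressed broadly without stimulation, had 36.2 and 35.9 RPM in Young against 26.3 and 27.0 in Old, with 27.9 and 32.5 in OldAcetate. For each Jun gene the Old libraries were the lowest. Among all regions, Old lay below Young without overlap in 60.2% and OldAcetate above Old in 47.1%. OldAcetate lay above Young for Jun, between Young and Old for Jund, and within the Young range for Junb. It lay above Young without overlap in 7.6% of all regions and below it in 29.8%.

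The groups overlapped most among the other bZIP genes. Atf3, a stress-induced factor that often represses its targets, had 45.7 and 38.4 RPM in Young against 43.5 and 34.2 in Old, with 41.3 and 43.8 in OldAcetate at the downstream start. At its upstream start it had 52.0 and 42.9 RPM in Young against 45.3 and 37.4 in Old, with 50.1 and 55.9 in OldAcetate. Old and Young overlapped at both Atf3 starts, and OldAcetate lay above Old at the upstream start only. Batf3, best known from dendritic cell development, had 12.5 and 8.99 RPM in Young against 8.78 and 11.1 in Old, with 11.4 and 7.92 in OldAcetate. Maff, a small Maf protein that lacks an activation domain, had 57.2 and 45.7 RPM in Young against 35.6 and 35.8 in Old, with 49.1 and 45.5 in OldAcetate. All 3 groups overlapped at Batf3, whereas for Maff Old lay below both other groups, which overlapped. Without overlap, Old lay below Young in 60.2% of all regions and OldAcetate above Old in 47.1%.

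**Figure D3:**
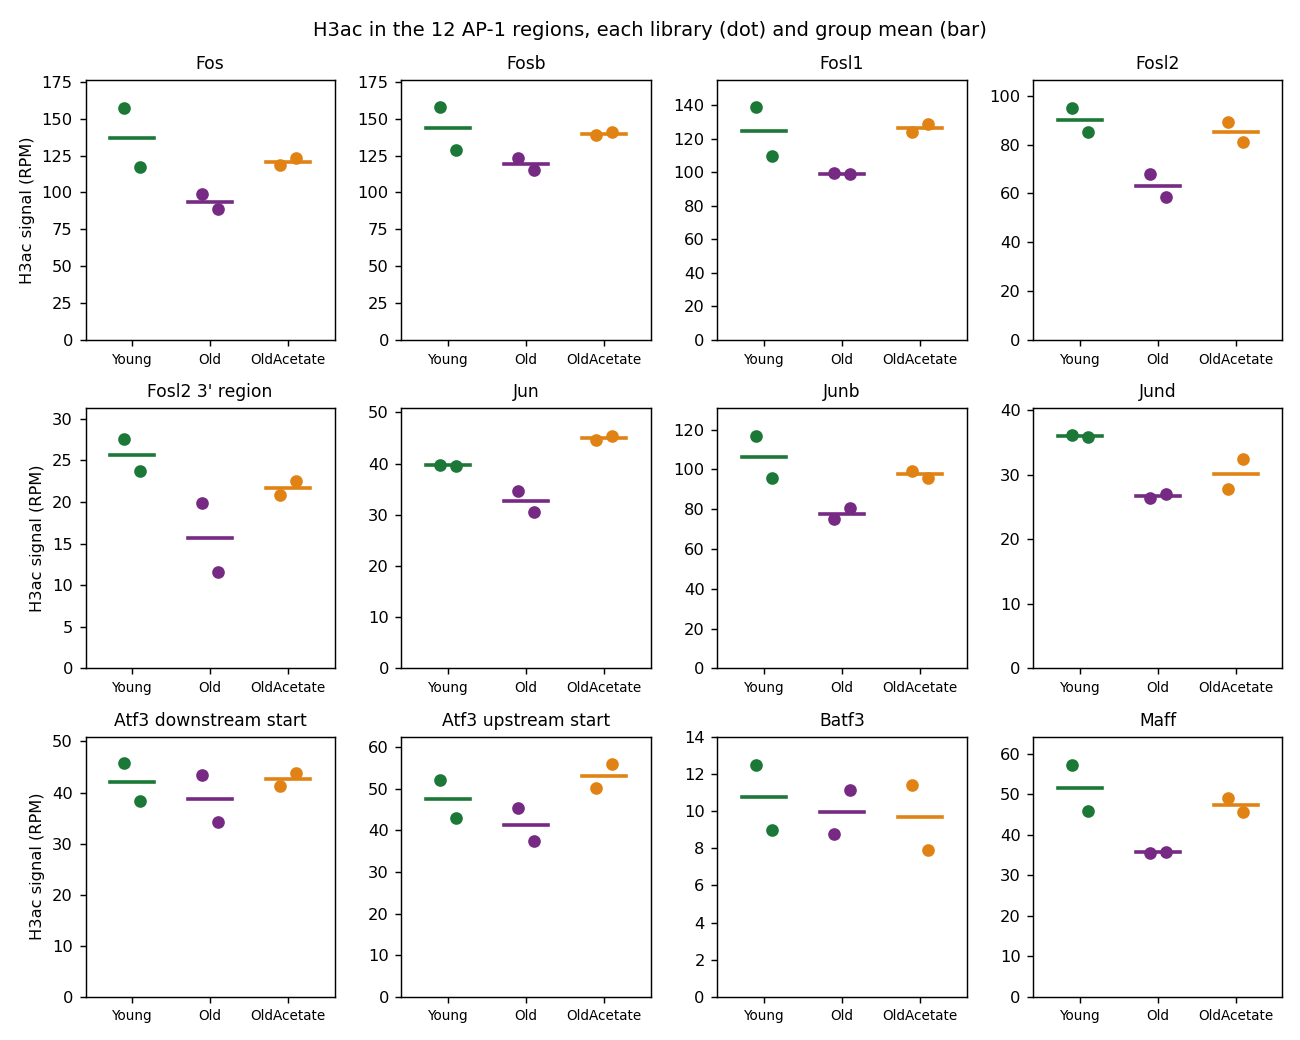
H3ac signal (RPM as deposited) in the 12 AP-1 regions, with 1 dot per library and a bar at the mean of each group of 2; each panel starts at 0. Both Old dots lie below both Young dots in 9 panels, the exceptions being both Atf3 starts and Batf3. Both Old values lie below both Young values in 60.2% of all regions.

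The comparison of Old with Young asked whether age changes H3ac at these genes. In the values as deposited, mean H3ac at Fos was 137 ± 28.1 RPM in Young and 93.8 ± 7.23 in Old (SD, n = 2), which is 68.4% of the Young mean, and Old was at 69.3% for Maff, 70.05% for Fosl2 and 92.7% for Batf3. Old lay below Young without overlap in 9 of the 12 regions, while this was so in 60.2% of all regions. The median of all regions was lower in Old by a log2 fold change of -0.35, next to -0.37 for the 12 AP-1 regions. The lower share of reads inside regions in Old is a sum of these same values and no separate observation. In limma on log2(RPM + 0.5) as deposited, 5 of the 12 regions were called lower at an adjusted p under 0.05 and 0 higher, with 9.52% of all regions called (9.5% lower and 0.0287% higher). These were Fos (log2 fold change -0.53, adjusted p = 0.0107), Fosl2 (-0.51, adjusted p = 0.0204), the Fosl2 3′ region (-0.74, adjusted p = 0.0309), Junb (-0.44, adjusted p = 0.0312) and Maff (-0.51, adjusted p = 0.0408). edgeR without scaling factors also called 5, with 10.3% of all regions called. The share called differed with length: 36.1% of all regions from 20 kb upward were called and 7.53% of the shorter ones, while the AP-1 regions gave 3 calls of 5 long and 2 of 7 shorter ones. The AP-1 calls also rested on single libraries, since their number changed whichever library was left out. Such a fit leaves 1 library in a group, and the share of all regions called in it is not given here.

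After the shift common to all regions was removed by median scaling, no AP-1 region passed the test. The scaled test reads only changes relative to other regions, because a change of H3ac shared by all regions is removed with the shift. limma called 0 of the 12 regions at an adjusted p under 0.05, with 0.00819% of all regions called (2 regions), and 0 of the 12 had an unadjusted p under 0.05, against 5.54% of all regions. edgeR on the recovered reads, with RLE factors, also called 0 (0.0205% of all regions), and 1 region, Fos, had an unadjusted p under 0.05, as 5.19% of all regions did. The median log2 fold change of the 12 regions was -0.02, with 6 positive and 6 negative. The Fosl2 3′ region (-0.39 ± 0.21, SE), Fos (-0.18 ± 0.09), Maff (-0.16 ± 0.14) and the Fosl2 promoter region (-0.16 ± 0.11) lay at the lower end. On the positive side were Batf3 (0.25 ± 0.28), both Atf3 starts (0.23 ± 0.15 downstream and 0.15 ± 0.14 upstream) and Fosb (0.09 ± 0.09). Leaving out single libraries moved these values widely, from -0.71 without Old replicate 1 to -0.067 without Old replicate 2 for the Fosl2 3′ region, from -0.31 to -0.053 (the latter without Young replicate 1) for Fos, from -0.24 to -0.085 for Maff and from 0.030 to 0.48 for Batf3. For Fos, which had the smallest unadjusted p of the 12 (0.0609, adjusted p = 0.894 in limma), the 95% interval ran from -0.37 to 0.01, so a moderate decrease relative to other regions could not be told from none with 2 libraries per group. In scaled values Old lay below Young without overlap in 4 of the 12 regions and above it in 3, where all regions gave 17.1% and 16.9%.

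The comparison of OldAcetate with Old asked whether acetate changes H3ac in old cells, and it used the same Old libraries. As deposited, the mean at Fosl2 was 63.2 ± 6.71 RPM in Old and 85.15 ± 5.99 in OldAcetate, and at Jun 32.6 ± 2.86 and 45.1 ± 0.55 (SD, n = 2), so that OldAcetate was at 135% of the Old mean for Fosl2, 138% for Jun and 97.1% for Batf3. OldAcetate lay above Old without overlap in 10 of the 12 regions, while this was so in 47.1% of all regions, the downstream start of Atf3 and Batf3 being the exceptions. The median log2 fold change as deposited was 0.35 for the AP-1 regions and 0.24 for all regions. limma on these values called 0 of the 12, with 0.311% of all regions called, and 8 had an unadjusted p under 0.05 against 18% of all regions. edgeR without factors called 0 as well, with 0.086% of all regions called. The lowest adjusted p in limma was 0.113, at Fosl2 (log2 fold change 0.43). The AP-1 regions held more reads than all regions, at medians of 120.5 and 40.8 reads averaged over libraries. The shares of all regions are thus no like-for-like reference, and a split by length is not given for this comparison. The number of AP-1 calls changed when Old replicate 1 was left out, and the share of all regions called in that fit is not given here.

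With scaling, limma called 0 of the 12 regions in OldAcetate against Old, with 0% of all regions called, and 0 had an unadjusted p under 0.05, whereas 6.24% of all regions did. edgeR with RLE factors also called 0, as in all regions, with 0 at an unadjusted p under 0.05 against 5.34% of all regions. The median log2 fold change was 0.11, with 8 regions positive and 4 negative, and the median of all regions was 0.00. The highest values were those of the Fosl2 3′ region (0.26 ± 0.21), Jun (0.22 ± 0.15) and the Fosl2 promoter region (0.19 ± 0.11), and the lowest that of Batf3 (-0.29 ± 0.28). With single libraries left out, the Fosl2 3′ region ranged from -0.055 (without Old replicate 2) to 0.58 and so changed sign, and Batf3 ranged from -0.53 to -0.053. For the Fosl2 promoter region the 95% interval ran from -0.03 to 0.41. OldAcetate lay above Old without overlap in 5 of the 12 regions after scaling, namely Fos, Fosl1, Fosl2, Jun and Maff, and below it in 0, where all regions gave 16.7% and 17.2%.

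The comparison of OldAcetate with Young set treated old cells beside untreated young ones. Among the 12 regions as deposited, OldAcetate lay above Young without overlap in 1, Jun (45.1 ± 0.55 against 39.7 ± 0.13 RPM), and below it in 2, Jund (30.2 ± 3.28 against 36.1 ± 0.17 RPM) and the Fosl2 3′ region (21.7 ± 1.19 against 25.7 ± 2.79 RPM), where all regions gave 7.6% and 29.8%. limma called 0 of the 12 with and without scaling, with 0% of all regions called in both, and 0 had an unadjusted p under 0.05 in either, against 5.08% of all regions after scaling and 6.1% as deposited. edgeR called 0 with RLE factors and 0 without, as in all regions, and with RLE factors 1 had an unadjusted p under 0.05 against 6.76% of all regions. After scaling, the largest log2 fold changes were those of Jun (0.29 ± 0.15, 95% interval -0.01 to 0.59) and the upstream start of Atf3 (0.27 ± 0.14, -0.01 to 0.55), and the smallest that of Jund (-0.14 ± 0.17). Their median over the 12 regions was 0.01. In scaled values OldAcetate lay above Young without overlap in 4 of the 12 regions (Fosl1, Jun and both Atf3 starts) and below it in 1 (the Fosl2 3′ region), where all regions gave 17.7% and 18.1%.

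**Figure D4:**
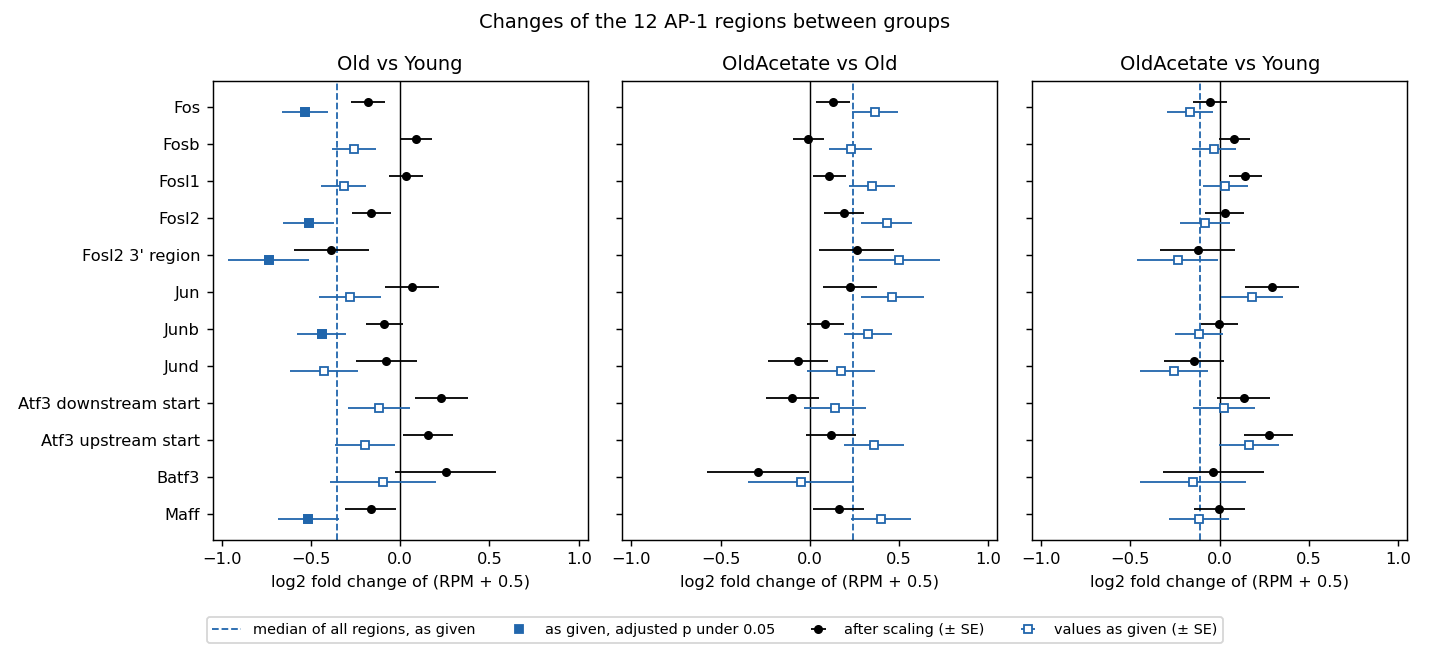
Log2 fold change of (RPM + 0.5) with its standard error for each of the 12 AP-1 regions in the 3 comparisons, after median scaling (black circles) and as deposited (blue squares, filled where the adjusted p was under 0.05); the dashed line is the median of all regions as deposited. In Old against Young the blue squares scatter around -0.35 and 5 are filled, while the black circles scatter around 0.

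Measured as a share, the 11 AP-1 promoter regions held much the same part of the H3ac signal in each group. Their summed RPM was 909.7 and 749 in Young against 659 and 618 in Old, with 794 and 801 in OldAcetate. As a percentage of the reads inside regions, the sum came to 0.140 and 0.130 in Young against 0.132 and 0.135 in Old, with 0.139 and 0.142 in OldAcetate. The sums of Old lay below those of both other groups, while as shares of the reads in regions Old lay inside the Young range. OldAcetate lay above Old without overlap in these shares, but the groups overlapped in shares of the reads in promoter regions.

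The wider AP-1 pathway was read through 4 lists with 66 promoter regions, of bZIP partners, upstream kinases and SRF factors, other immediate early genes and AP-1 target genes. After scaling, limma called 0 of the 66 in each comparison. Among bZIP partners, 12 of 15 genes had a promoter region (not Batf, Batf2 or Nrl), with median log2 fold changes of 0.04 in Old against Young, 0.02 in OldAcetate against Old and 0.01 in OldAcetate against Young. The lowest p belonged to Bach1, a heme-sensing repressor (0.18 ± 0.11, SE), Mafk, a small Maf (-0.26 ± 0.14), and Atf4, the factor of the integrated stress response (0.18 ± 0.16), in this order of comparisons. The kinases and SRF factors, which relay growth signals to the Fos promoter, had regions in 16 of 17 genes (not Mapk10) and medians of 0.00, 0.07 and 0.17. The regions with the lowest p were those of the stress kinase Mapk14 (0.37 ± 0.16), the SRF coactivator Mrtfa (0.42 ± 0.20) and Srf itself (0.32 ± 0.16). Their adjusted p in limma was 0.89, 0.78 and 0.96. All 20 other immediate early genes had a region, with medians of 0.03, 0.08 and 0.08. Among the AP-1 target genes, 14 of 18 had one (not Mmp3, Mmp9, Mmp10 or Mmp13), with medians of 0.03, 0.01 and -0.00. The urokinase receptor gene Plaur had the lowest p in the first and second comparison (0.24 ± 0.12 and -0.13 ± 0.12). The regions named for Atf4, Mapk14 and Plaur were also promoter regions of Rps19bp1, Slc26a8 and Irgc1, in turn.

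In the values as deposited, limma called pathway regions lower in Old than in Young in each list, and the named regions that follow were chosen after their values were seen. They were 3 of 12 bZIP partner regions (Jdp2, Nfe2l1 and Nfe2l2), 3 of 19 kinase and SRF factor regions (Map2k4, Map2k7 and Elk3), 5 of 21 other immediate early regions (Ier2, Zfp36l1, Dusp1, Trib1 and Gadd45b) and 4 of 14 target gene regions (Cd44, Ccl2 and Hbegf among them), where 9.5% of all regions were called lower. Long regions were called more often, at 36.1% of all regions from 20 kb upward and 7.53% of the shorter ones (either direction). The 4 lists held 3, 4, 10 and 8 regions of that length in turn, so 9.5% is no like-for-like reference. Of the 8 stromal marker regions, Pdgfra and Thy1 were called as well. None of these calls was kept after scaling. In OldAcetate against Old, the immediate early genes Zfp36l1, which encodes a protein that speeds mRNA decay, and Ier2 were called higher as deposited, which is 2 of 21 regions of that list, where 0.311% of all regions were called. A split by length is not given for this comparison. Zfp36l1 had 34.2 and 35.1 RPM in Young against 24.0 and 23.5 in Old, with 43.7 and 41.7 in OldAcetate, with a log2 fold change of 0.83 as deposited (adjusted p = 0.0236 in limma) and of 0.59 ± 0.16 after scaling (adjusted p = 0.462). Ier2 had 35.9 and 39.6 RPM in Young against 24.0 and 21.1 in Old, with 35.6 and 40.5 in OldAcetate. In both genes, which were picked for these calls, the Old libraries lay below the other four.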

How the data were processed

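Per the labels, the authors aligned CUT&RUN reads to mm10 with Bowtie2 and used Picard; versions, the peak caller, the library totals and any use of the added yeast DNA for scaling are not given in the sources used here. The deposited table, although named as RPKM, holds RPM per region and library. In each library 100% of the values were whole multiples of the value of 1 read (tolerance 0.01) and did not scale with region length, so whole reads were recovered. AP-1 regions held 19 to 481 reads per library, and counting alone gives an error of up to 22.9% of the smallest value (Batf3) and 6.12% for Fosb.

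All 24431 regions were tested with limma 3.58.1 (R 4.3.3) on log2(RPM + 0.5), which understates changes of low regions, after each library was shifted by the median of its deviations from the means of the regions. One fit of group means held all 6 libraries (eBayes with trend and robust), with Benjamini-Hochberg adjustment over all regions and a threshold of 0.05. With 2 libraries against 2, an exact permutation test of a single region cannot give a p under 0.333, so none was used. The values as deposited were fitted in the same way.

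Named were all 10 AP-1 genes with their promoter and other regions. For each pathway list and comparison, the rule set was up to 3 called regions in each direction or, with 0 called, the region with the lowest p. It was not followed throughout, since 5 called immediate early regions are named and some regions with the lowest p are not. Of the regions and markers examined, some are not reported here. The members and the lists were chosen with earlier results of these data known. Motifs were searched in the RefSeq GRCm38.p6 sequence. The alternatives tried were quantile normalization or none, pseudocounts of 0.1 and 1, dropping the 25% of regions with the lowest levels, a block for the replicate number, a fit of the 4 compared libraries alone, plain eBayes, edgeR 4.0.16 with RLE factors on the recovered reads, a threshold of 0.01, other gene extensions and leaving out each library. edgeR without factors and leaving out libraries from the values as deposited were added after seeing the data. Scripts were tested on simulated data, and figures were drawn with matplotlib 3.10.9 (Python 3.11.15).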

Additional observations from a re-analysis of the deposited data

How the results depend on the processing

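After median scaling, 0 of the 12 AP-1 regions and 0 of the 66 pathway regions were called in each comparison, also with other pseudocounts, quantile normalization, fewer regions or libraries, plain eBayes and edgeR with RLE factors, and with a threshold of 0.01 and other gene extensions for the AP-1 regions. Without scaling, limma called 5 AP-1 and 15 pathway regions in Old against Young and 2 pathway regions in OldAcetate against Old, and edgeR without factors 5, 14 and 1. Fos, Fosl2, Junb and Maff were the AP-1 promoter regions that passed the threshold in Old against Young only without scaling. Leaving out single libraries gave 0 to 7 AP-1 and 0 to 16 pathway regions without scaling in Old against Young (3 and 12 without Old replicate 1, 7 and 16 without Young replicate 2, 1 and 2 without OldAcetate replicate 1, 1 and 4 without OldAcetate replicate 2), and 0 to 1 and 0 to 2 in OldAcetate against Old. In scaled values over all regions, same-numbered libraries did not deviate together (correlations of 0.01, -0.03 and -0.04), so the numbers were taken as names only. Scaling removes any shift that same-numbered libraries share, so this check cannot show pairing in the values as deposited. The replicate block gave 0 AP-1 and 0 pathway calls after scaling, as without it. It was not run on the values as deposited.

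Without scaling, which adds back the shift of all regions (-0.35, 0.24 and -0.11), the log2 fold change turned in Old against Young to -0.26 for Fosb, -0.32 for Fosl1, -0.28 for Jun, -0.12 for the downstream and -0.20 for the upstream start of Atf3 and -0.10 for Batf3. In OldAcetate against Old it turned to 0.23 for Fosb, 0.17 for Jund and 0.14 for the downstream start of Atf3, and in OldAcetate against Young to -0.031 for Fosb and -0.083 for Fosl2. Leaving out single libraries after scaling gave both signs in 13 cases among the promoter regions, and also for the Fosl2 3′ region in OldAcetate against Old (-0.055 to 0.58). In Old against Young these were Fosl1 (-0.054 to 0.12), Jun (-0.0093 to 0.15), Junb (-0.20 to 0.025) and Jund (-0.16 to 0.0024). In OldAcetate against Old they were Fosb (-0.034 to 0.014), Junb (-0.029 to 0.20), Jund (-0.19 to 0.055) and the downstream start of Atf3 (-0.21 to 0.011). In OldAcetate against Young they were Fos (-0.18 to 0.074), Fosl2 (-0.030 to 0.089), Junb (-0.065 to 0.060), Batf3 (-0.27 to 0.20) and Maff (-0.081 to 0.076). The causes were not tested. With 2 libraries per group and a median standard error of 0.14 on the log2 scale, small changes of single AP-1 regions were not detectable.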
